A study of Mus musculus with 7 samples.

Results

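The endocytic receptor genes Lrp2, Cubn and Amn, their adaptor Dab2, and the secreted carrier genes Apoe, Apoa1, Apob and Ttr were examined in the inner cell mass (ICM) of mouse blastocysts with a construct meant to induce ERK, given tamoxifen or vehicle. The 8 genes were chosen by symbol as a set of endocytosis and carrier genes of the early endoderm, and each matched 1 Ensembl gene among the 52636 of the count table. All 8 passed the filter on low counts and were among the 16248 genes tested.

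Every library came from Sox2Cre;CRAFR26 embryos, which carry an inducible cRAF construct, activated by tamoxifen, in a mouse line made from targeted embryonic stem cells, together with Sox2Cre, a transgene used for recombination in the epiblast lineage. The share of endoderm-type or trophectoderm-type cells with an active construct was not tested. All embryos were flushed at embryonic day 2.5 and grown for 24 h in KSOM medium with the FGF receptor inhibitor PD173074 at 250 nM, so control and treated groups shared that block of the pathway upstream of ERK. The treated group received 250 nM 4-hydroxytamoxifen, called tamoxifen here, for 4 h (4 libraries), and the control group received ethanol, the vehicle, for 4 h (3 libraries, labelled 0 h). The embryos came from 2 clones: clone 4 gave 2 vehicle and 2 tamoxifen libraries, and clone 8 gave 1 vehicle and 2 tamoxifen libraries; 1 vehicle sample had been dropped at quality control, according to the submitters. Each library was made by low-input amplification of RNA (2 ng) of 10 pooled ICMs, freed of trophectoderm by immunosurgery. The samples carry the label epiblast at embryonic day 3.5.

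Lrp2 encodes megalin, a giant endocytic receptor that takes up many ligands from the extracellular fluid. Cubilin, the product of Cubn, has no membrane-spanning part and reaches the cell surface with the help of amnionless, the product of Amn, and both work together with megalin. Dab2 is a cytoplasmic adaptor that binds the tails of such receptors and links them to clathrin and the AP-2 complex. In the visceral endoderm these proteins take up maternal proteins and lipids, and the same tissue secretes apolipoproteins and transthyretin (Ttr). Dab2 is an early marker of the primitive endoderm, and megalin and Dab2 are also known from the trophectoderm.

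Sequence just upstream of the start site is given for the 3 partners of the cubilin and megalin receptor complex, because their transcripts stood at very different levels in the same libraries. The windows are from RefSeq (GRCm38.p6) and run from 250 to 51 bases before the annotated start. They lie at chr2:69586080-69586279 (minus strand) for Lrp2, chr2:13491927-13492126 (minus strand) for Cubn and chr12:111270846-111271045 (plus strand) for Amn. The RefSeq start of Cubn lies outside the GENCODE gene whose counts are given here, unlike those of Lrp2 and Amn. Capitals mark matches to CCGGAA, a core letter string of ETS factors, which include nuclear effectors of ERK.
Lrp2: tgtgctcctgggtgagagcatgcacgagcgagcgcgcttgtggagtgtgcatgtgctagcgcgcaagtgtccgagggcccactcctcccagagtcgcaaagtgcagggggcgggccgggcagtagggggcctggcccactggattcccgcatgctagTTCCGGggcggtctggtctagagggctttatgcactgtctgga
Cubn: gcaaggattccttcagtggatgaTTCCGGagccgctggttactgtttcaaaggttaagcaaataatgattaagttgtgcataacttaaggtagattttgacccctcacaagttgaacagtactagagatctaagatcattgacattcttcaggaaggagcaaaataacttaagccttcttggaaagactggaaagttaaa
Amn: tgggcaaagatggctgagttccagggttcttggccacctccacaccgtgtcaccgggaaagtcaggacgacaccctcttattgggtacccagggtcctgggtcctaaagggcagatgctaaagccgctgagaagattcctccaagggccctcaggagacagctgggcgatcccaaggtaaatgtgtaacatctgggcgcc

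The Lrp2 window had a GC content of 65% and 13 CpG dinucleotides, the Amn window 57.5% and 6, and the Cubn window 38.5% and 2. Over all 32851 RefSeq windows of 200 bases the medians were 51.5% and 4. The ETS letters were present once each in the Lrp2 and Cubn windows, were not found in that of Amn, and were present in 8.03% of all windows. Neither GATA letters (AGATAA or TGATAA, in 14.2% of all windows) nor AP-1 letters (TGANTCA, in 5.57%) were found in these 3 windows. Both strands were searched, and a match describes the letters only. RefSeq windows were matched for 7 of the 8 genes, all except Ttr. The 2 Dab2 windows had 35% GC with 1 CpG and 61% GC with 15 CpG. The former held GATA letters once and the latter ETS letters once. GC content was 49% to 54.5% in the 3 Apoe windows, 60.5% for Apoa1 and 55.5% for Apob. The part of window composition in the levels of these genes was not tested.

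Total counts ranged from 22981498 to 42294719 per library, and the 8 genes together took 0.119% to 0.166% of them. Transcripts of the trophectoderm were abundant in all 7 libraries in spite of the immunosurgery: Cdx2 ranged from 324 to 543 CPM (counts scaled to a common library size with TMM factors) and Krt8 from 2250 to 3837 CPM. Nanog, an epiblast factor, ranged from 428 to 705 CPM. Among the endoderm factors, Gata6 ranged from 56.7 to 151 CPM and Hnf4a from 6.05 to 26.0 CPM. Gata4 had between 0.872 and 2.01 CPM, Sox7 between 0 and 12 counts, and Foxa2 between 0 and 2 counts. The libraries thus held transcripts of trophectoderm and epiblast markers and of the endoderm factors Gata6 and Hnf4a. Gata4, Sox7 and Foxa2 were low, and the presence of endoderm cells was not tested. In such bulk samples fewer cells of a type and less RNA per cell cannot be told apart.

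The levels of the 8 genes spanned more than the differences between groups did. Per kilobase of the longest annotated transcript, the median over the 7 libraries was 219 CPM per kb for Apoe (range 166 to 363) and 137 for Dab2 (120 to 176). It was 21.9 for Lrp2 (13.8 to 25.7) and 11.4 for Apoa1 (8.40 to 36.2). It was 1.70 for Amn (0.394 to 2.56), 0.792 for Cubn (0.419 to 1.54), 0.291 for Ttr (0.205 to 0.379) and 0.0227 for Apob (0.0085 to 0.0962). In this order the ranges of Apoe and Dab2 overlapped, as did those of Lrp2 and Apoa1 and those of Amn and Cubn, whereas the other neighbours were separated. The longest transcript was used for every gene, and Lrp2 also has shorter annotated forms (15460 nt for the longest, 4359 nt for the median form), with which its value per kb would be higher.

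**Figure D1:**
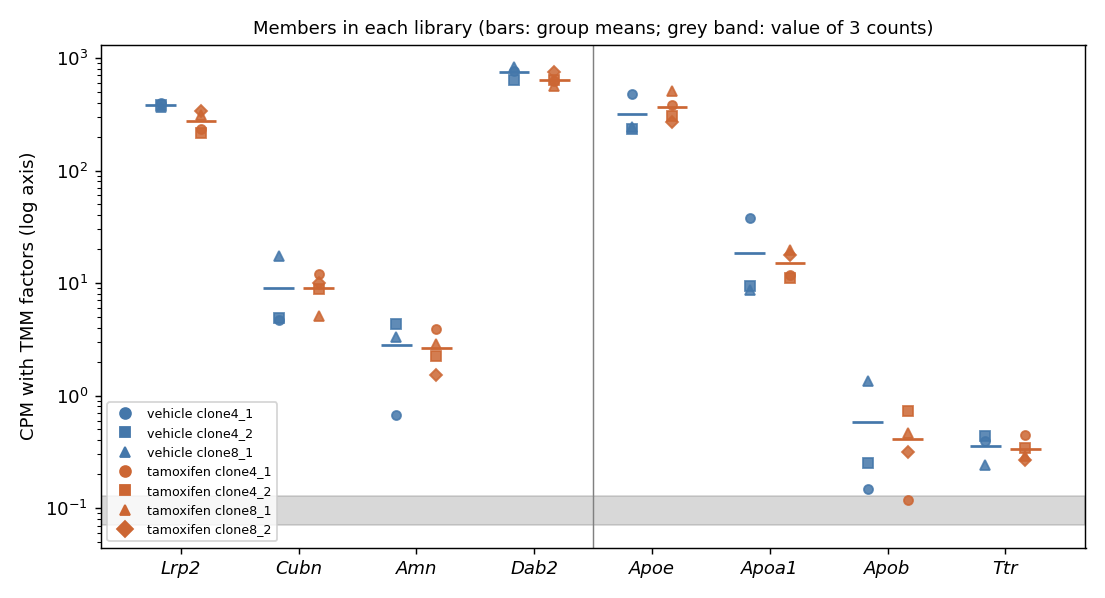
CPM with TMM factors (log axis) of the 4 receptor and adaptor genes (left) and the 4 carrier genes (right) in each library; points are libraries, marked by clone and number, bars are group means, and the grey band is the value of 3 counts (0.0710 to 0.129 CPM). Dab2, Apoe and Lrp2 lie above 200 CPM in every library, while Ttr (8 to 19 counts) and Apob (5 to 55 counts) are the genes nearest to the band.

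The effect of 4 h of tamoxifen was asked of each gene in a fit across all 16248 genes (edgeR's quasi-likelihood test). No gene passed an adjusted p of 0.05, 0 of 16248 (0%), so none of the 8 did; 970 genes (5.97%) had an unadjusted p under 0.05, of which 533 (3.28% of all) were lower with tamoxifen. DESeq2 called 4 genes at an adjusted p of 0.05, none of them among the 8. Of the 8 genes, 1 (Lrp2) had an unadjusted p under 0.05. The groups did not overlap for 1 of the 8, again Lrp2, against 1373 genes (8.45%) of all tested, 770 of them (4.74%) with tamoxifen lower. Of the 8 genes, 2 had a positive and 6 a negative log2 fold change, with a median of -0.15 against 0.019 over all genes tested. The positive values were those of Apoe (0.21) and Cubn (0.000125). The labels do not say that the pools came from separate litters or cultures, so p-values measure the spread between these libraries.

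Lrp2 (ENSMUSG00000027070, chromosome 2, 69424340 to 69586065, minus strand) was the receptor gene with the highest counts, from 4953 to 16015 per library. It had 397, 383 and 363 CPM in vehicle clone4_1, clone4_2 and clone8_1. It had 233, 214, 312 and 339 CPM in tamoxifen clone4_1, clone4_2, clone8_1 and clone8_2. All tamoxifen libraries were below all vehicle libraries, and both tamoxifen libraries of clone 4 were lower than those of clone 8. The means were 381 ± 17.1 CPM with vehicle (SD, n = 3) and 274 ± 60.5 CPM with tamoxifen (SD, n = 4). The log2 fold change was -0.47 ± 0.19 (SE; 95% interval -0.90 to -0.052), and edgeR's quasi-likelihood test gave an adjusted p = 0.794 (unadjusted p = 0.0314). This difference was therefore not called after adjustment over all genes.

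The sign of the Lrp2 difference was negative in all 17 alternatives, and its adjusted p ranged from 0.550 to 0.961 over them. Its unadjusted p passed 0.05 in 13 of them. Without vehicle clone4_1, vehicle clone4_2, tamoxifen clone4_1 or tamoxifen clone4_2, that p was 0.0674, 0.0658, 0.0843 and 0.0848 (edgeR), with log2 fold changes of -0.46, -0.47, -0.42 and -0.38. Within clone 4 the log2 fold change was -0.81 ± 0.14 (SE; edgeR, unadjusted p = 0.000551 and adjusted p = 0.550; n = 2 and 2). In clone 8 the log2 ratio of group means was -0.16, with 1 vehicle library and no test of its own. The difference between the clones, as a clone by condition interaction, was 0.65 ± 0.24 (SE; edgeR, unadjusted p = 0.0256 and adjusted p = 0.260), in a test that called 514 genes (3.16%) of all tested and that rests on vehicle clone8_1.

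Trophectoderm markers had lower estimates with tamoxifen in the same libraries, but none was called after adjustment (lowest adjusted p = 0.794, edgeR). All 10 genes of the trophectoderm list had a negative log2 fold change (median -0.33). Of these, 3 had an unadjusted p under 0.05 in edgeR (Gata3, Elf3 and Krt7), and the groups did not overlap for Gata3 and Elf3. Over all genes tested, 7840 of 16248 were negative, 5.97% had an unadjusted p under 0.05 and 8.45% had groups apart. In clone 8 the log2 ratio of group means was 0.35 for Tfap2a and 0.40 for Id2, and negative for the rest of the list. Krt7 depended on vehicle clone4_1: its log2 fold change was -1.24 with all libraries and -0.48 without that one (edgeR, unadjusted p = 0.285), and its unadjusted p was 0.0702 without tamoxifen clone4_2 and 0.0762 without tamoxifen clone8_2. The summed level of the list was 8530 to 11228 CPM in vehicle and 6546 to 9534 CPM in tamoxifen libraries. Gata3, a trophectoderm factor, had 929 ± 87.4 CPM with vehicle (SD, n = 3) and 670.1 ± 42.7 CPM with tamoxifen (SD, n = 4). Relative to the vehicle mean, the tamoxifen libraries had on average 0.720 of the Lrp2 level, 0.722 of the Gata3 level, 0.691 of the level of Elf3, an epithelial ETS factor, and 0.822 of the Cdx2 level. Over the 10 genes of the list, the fitted ratio of tamoxifen to vehicle ran from 0.425 (Krt7) to 0.883 (Hand1). The part of the trophectoderm share in the Lrp2 difference was not tested.

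Among 9446 genes with a mean of at least 5 CPM, the ones whose profile over the 7 libraries lay nearest to that of Lrp2 were Gas2l3 and Elf3. Nearness was the root mean square difference of centred log2 CPM, which was 0.081 for Gas2l3 and 0.090 for Elf3, against a median of 0.44 over those genes. Elf3 had 842, 858 and 843 CPM in the vehicle libraries and 555, 453, 608 and 728 CPM in the tamoxifen libraries, in the order given for Lrp2. Gas2l3 had, in that order, 56.6, 50.9 and 52.2 CPM in the vehicle libraries and 35.9, 30.9, 43.6 and 43.4 CPM in the tamoxifen libraries. Tamoxifen clone4_2 was the lowest tamoxifen library for Lrp2, Elf3 and Gas2l3. Tamoxifen clone8_2 was the highest for Lrp2 and Elf3 but not for Gas2l3. Gas2l3 and Elf3 were picked for their likeness to Lrp2 in these same libraries, so a shared order is no separate result.

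**Figure D2:**
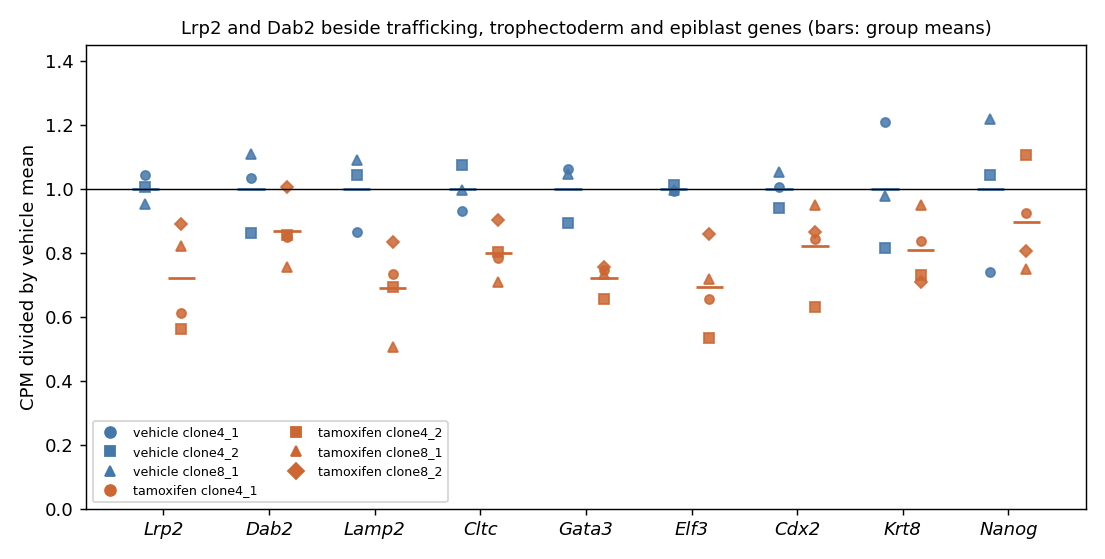
CPM divided by the mean of the vehicle libraries for Lrp2 and Dab2, the trafficking genes Lamp2 and Cltc, the trophectoderm genes Gata3, Elf3, Cdx2 and Krt8, and the epiblast gene Nanog; points are libraries and bars are group means. All 4 tamoxifen libraries lie below all 3 vehicle libraries for Lrp2, Lamp2, Cltc, Gata3 and Elf3, while the groups overlap for Dab2, Cdx2, Krt8 and Nanog.

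Dab2 (ENSMUSG00000022150, chromosome 15, 6299788 to 6440712, plus strand), the adaptor, had the highest CPM of the 8 genes. It had 767, 639 and 823 CPM in the vehicle libraries clone4_1, clone4_2 and clone8_1. It had 630, 637, 560.2 and 748 CPM in tamoxifen clone4_1, clone4_2, clone8_1 and clone8_2. The groups overlapped, since tamoxifen clone8_2 was above vehicle clone4_2. The log2 fold change was -0.21 ± 0.16 (SE; 95% interval -0.57 to 0.15; adjusted p = 0.810, edgeR). Dab2 varied least over the libraries among the 8 genes, with 1.47 times more CPM in the highest library than in the lowest. The nearest profiles were those of Ssr1, a subunit of a protein complex at the translocon of the endoplasmic reticulum, and Dap3, a mitochondrial ribosome protein, both with a root mean square difference of 0.036. Dab2 and Cubn overlap annotated genes of the opposite strand, and the strand setting of the counting is not given in the sources used here.

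Cubn (ENSMUSG00000026726, chromosome 2, 13276338 to 13491813, minus strand) had 4.71, 4.86 and 17.4 CPM in vehicle clone4_1, clone4_2 and clone8_1. It had 11.9, 8.92, 5.09 and 10.0 CPM in tamoxifen clone4_1, clone4_2, clone8_1 and clone8_2. In clone 4 both tamoxifen libraries were above both vehicle libraries, and in clone 8 both were below the single vehicle library. The group means were 8.99 ± 7.28 CPM with vehicle (SD, n = 3) and 8.99 ± 2.88 CPM with tamoxifen (SD, n = 4), and the log2 fold change was 0.000125 ± 0.49 (SE; 95% interval -1.10 to 1.10; adjusted p = 1.00, edgeR). Vehicle clone8_1 decided this value: without it the log2 fold change was 0.90 ± 0.38 (SE; edgeR, unadjusted p = 0.0418 and adjusted p = 0.746). Within clone 4 it was 1.12 ± 0.35 (SE; edgeR, unadjusted p = 0.0150 and adjusted p = 0.557; n = 2 and 2). The interaction of clone and condition was -2.33 ± 0.63 (SE; edgeR, unadjusted p = 0.00572 and adjusted p = 0.116), which is not among the 3.16% of genes called.

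Amn (ENSMUSG00000021278, chromosome 12, 111271095 to 111276426, plus strand) was counted 27 to 164 times per library. It had 0.670, 4.36 and 3.34 CPM in vehicle and 3.88, 2.24, 2.89 and 1.53 CPM in tamoxifen libraries, in the order clone4_1, clone4_2, clone8_1 and, for tamoxifen, clone8_2. The lowest and the highest library were both vehicle libraries of clone 4, 6.51-fold apart. The log2 fold change was -0.078 ± 0.61 (SE; 95% interval -1.44 to 1.28; adjusted p = 0.984, edgeR), and the sign reversed without vehicle clone4_2 (0.39) or vehicle clone8_1 (0.066) and without tamoxifen clone8_2 (0.11). Vehicle clone8_1 was the highest library of all for Cubn but not for Amn.

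Among the carriers, Apoe (ENSMUSG00000002985, chromosome 7, 19696109 to 19699188, minus strand), which carries lipids and is taken up by receptors, was abundant. It had 477, 234 and 243 CPM in vehicle clone4_1, clone4_2 and clone8_1. It had 384, 308, 511 and 268 CPM in tamoxifen clone4_1, clone4_2, clone8_1 and clone8_2. Vehicle clone4_1 stood among the high tamoxifen values, and the other vehicle libraries were below all tamoxifen libraries. The log2 fold change was 0.21 ± 0.30 (SE; 95% interval -0.46 to 0.87; adjusted p = 0.890, edgeR). Without vehicle clone4_1 it was 0.60 ± 0.26 (SE; edgeR, unadjusted p = 0.0468 and adjusted p = 0.551), whereas without tamoxifen clone8_1 it was 0.0089. It moved by more than 1.5 times in further fits: 0.027 without vehicle clone4_2, 0.036 without vehicle clone8_1, and 0.34 without tamoxifen clone8_2.

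Apoa1 (ENSMUSG00000032083, chromosome 9, 46228580 to 46230466, plus strand), the main protein of high-density lipoprotein, had 37.5, 9.37 and 8.70 CPM in vehicle clone4_1, clone4_2 and clone8_1. It had 11.8, 11.1, 19.6 and 17.6 CPM in tamoxifen clone4_1, clone4_2, clone8_1 and clone8_2. Vehicle clone4_1 was the highest library and the other vehicle libraries the lowest. The log2 fold change was -0.30 ± 0.49 (SE; 95% interval -1.39 to 0.79; adjusted p = 0.897, edgeR), and without vehicle clone4_1 it reversed to 0.72 ± 0.32 (SE; edgeR, unadjusted p = 0.0543 and adjusted p = 0.554). It was -0.62 and -0.65 without vehicle clone4_2 and clone8_1. The clone by condition interaction of Apoa1 was 2.13 ± 0.89 (SE; edgeR, unadjusted p = 0.0428 and adjusted p = 0.315). Vehicle clone4_1 was also the library with the most Krt7, 71.2 CPM where vehicle clone4_2 and clone8_1 had 21.6 and 23.7 CPM, and the fewest Sox17 counts, 12. The part of these features of vehicle clone4_1 in the Apoe and Apoa1 values was not tested.

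The profiles nearest to that of Apoe were those of Snx22 (root mean square difference 0.13) and Rgl2 (0.15), against a median of 0.54. The profile nearest to Apoa1 was that of Glipr1 (0.25), and those nearest to Cubn were of Hcfc2 and Lrch1 (both 0.30), against medians of 0.76 and 0.73. These were looser than for Lrp2 and Dab2, whose own libraries also varied less.

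Apob and Ttr had the fewest counts of the 8 genes. Apob (ENSMUSG00000020609, chromosome 12, 7977648 to 8016835, plus strand), the protein on which very-low-density lipoprotein is built, had 6, 8 and 55 counts in vehicle clone4_1, clone4_2 and clone8_1. It had 5, 17, 13 and 13 counts in the tamoxifen libraries, in the order clone4_1, clone4_2, clone8_1 and clone8_2. The log2 fold change was -0.52 ± 0.98 (SE; 95% interval -2.70 to 1.66; adjusted p = 0.913, edgeR), and without vehicle clone8_1, the library with 55 counts, it reversed to 1.01 ± 1.13 (SE, adjusted p = 0.928, edgeR). Ttr (ENSMUSG00000061808, chromosome 18, 20665280 to 20674321, plus strand), which carries thyroxine and binds the retinol carrier Rbp4, had 8 to 19 counts in every library. It had 0.359 ± 0.102 CPM with vehicle (SD, n = 3) and 0.338 ± 0.0817 CPM with tamoxifen (SD, n = 4). For Ttr the difference on the log2 scale was -0.083 ± 0.75 (SE; 95% interval -1.76 to 1.59; adjusted p = 0.986, edgeR).

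Partner genes of receptor-mediated endocytosis were present throughout. All 19 genes of the list were tested: 9 had a positive and 10 a negative log2 fold change (median -0.021). Of them, 1 had an unadjusted p under 0.05, the groups did not overlap for 2, and 0 passed after adjustment. Of all genes tested, 5.97% had an unadjusted p under 0.05 (edgeR) and 8.45% had groups apart. Lrpap1, the chaperone that escorts megalin and its relatives through the endoplasmic reticulum, had 1905 to 2994 CPM, and its log2 fold change was -0.18 ± 0.18 (SE; adjusted p = 0.840, edgeR), or -0.0079 without vehicle clone8_1 and -0.29 without vehicle clone4_2. Per kilobase it was at 682 CPM per kb (median of 7 libraries), above all 8 genes described here. Lrp1, a large receptor related to megalin, had 3.89 ± 1.19 CPM with vehicle (SD, n = 3) and 4.64 ± 1.87 CPM with tamoxifen (SD, n = 4). Myo6, a motor that moves along actin towards the minus end and binds Dab2, was higher in all tamoxifen libraries: 12.8 ± 1.41 CPM with vehicle (SD, n = 3) against 17.9 ± 0.996 CPM with tamoxifen (SD, n = 4), a log2 difference of 0.48 ± 0.21 (SE; edgeR, unadjusted p = 0.0416 and adjusted p = 0.794). Myo6 was under an unadjusted p of 0.05 (edgeR) in 6 of 17 alternatives, and of the fits without 1 library only in that without tamoxifen clone8_1; in the other 6 the unadjusted p was 0.0538 to 0.119. Cltc, the clathrin heavy chain, was lower in all tamoxifen libraries, with a log2 fold change of -0.32 ± 0.15 (SE; edgeR, unadjusted p = 0.0550 and adjusted p = 0.794); it is named for the separation of its groups, after its values were seen.

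The list of endosome and lysosome genes had 10 of 13 genes with a negative log2 fold change (median -0.20), 1 with an unadjusted p under 0.05 and 0 after adjustment. That gene was Lamp2, a membrane protein of the lysosome. For comparison, 7840 of all 16248 genes tested were negative, 5.97% had an unadjusted p under 0.05 (edgeR) and 8.45% had groups apart. Lamp2 had 214 ± 25.4 CPM with vehicle (SD, n = 3) and 148 ± 29.4 CPM with tamoxifen (SD, n = 4), with no overlap of the groups. On the log2 scale the difference was -0.53 ± 0.19 (SE; edgeR, unadjusted p = 0.0197 and adjusted p = 0.794). Without vehicle clone4_2 the unadjusted p of Lamp2 was 0.0559 (edgeR). Rab7, a late endosome regulator named after its values were seen, also had separate groups, with tamoxifen below vehicle and a log2 fold change of -0.20 ± 0.14 (SE; edgeR, unadjusted p = 0.194).

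**Figure D3:**
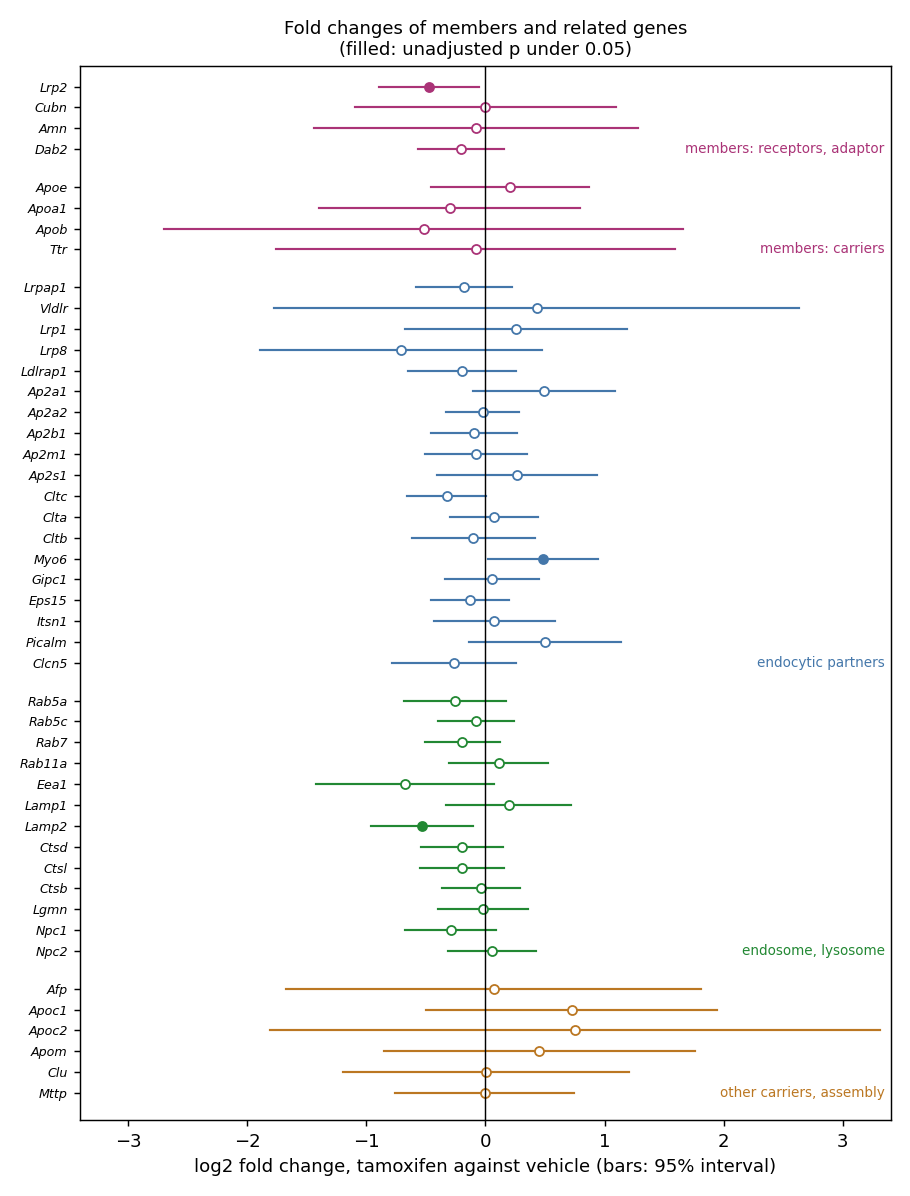
Log2 fold changes of tamoxifen against vehicle (edgeR, 7 libraries) with 95% intervals for the 8 genes, 19 endocytic partners, 13 endosome and lysosome genes and the 6 tested genes of the carrier list; filled points have an unadjusted p under 0.05. Lrp2, Myo6 and Lamp2 are the filled points, and the intervals of Apob and Ttr are among the widest.

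Most other carriers of the visceral endoderm had few counts, with Apoc1 as the main exception. Of 12 genes in that list, 6 passed the filter, and 0 of these had an unadjusted p under 0.05 (5 positive, 1 negative). Alb was counted 0 times in all 7 libraries, which allows up to 0.0710 to 0.129 CPM per library at 3 counts. Trf had at most 2, Apoa4 at most 4, Apoh at most 6, Rbp4 at most 7 and Apoa2 at most 8 counts in any library. Afp, the fetal albumin of the visceral endoderm, had 6 to 20 counts per library, with 0.348 ± 0.178 CPM with vehicle (SD, n = 3) and 0.362 ± 0.0959 CPM with tamoxifen (SD, n = 4). Mttp, which loads lipid onto the Apob protein, had 5.66 ± 1.58 CPM with vehicle (SD, n = 3) and 5.63 ± 1.36 CPM with tamoxifen (SD, n = 4), and Mttp was thus counted at least 119 times in each library while Apob had as few as 5 counts.

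Apoc1, which lies beside Apoe on chromosome 7 (19689481 to 19692660, minus strand), was the abundant gene of that list. Apoc1 had 104, 80.2 and 11.8 CPM in vehicle clone4_1, clone4_2 and clone8_1, and 102, 96.2, 148.5 and 85.4 CPM in tamoxifen clone4_1, clone4_2, clone8_1 and clone8_2. It is named after its values were seen. Vehicle clone8_1 was far below the other libraries for Apoc1, whose longest transcript has 532 nt, and not for Apoe (1408 nt). The part of transcript length in this was not tested, and no length-corrected value of Apoc1 is given here. With a correction for transcript length in each library, the log2 fold change of Lrp2 was -0.43, of Apoe 0.11, of Apoa1 -0.39 and of Dab2 -0.15.

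Genes of the endoderm list had mostly positive log2 fold changes. For comparison with this and the next 2 lists, 8408 of all 16248 genes tested were positive. Of all genes tested, 5.97% had an unadjusted p under 0.05 (edgeR). Of the 12 genes of the primitive and visceral endoderm list, 10 were tested, 9 with a positive log2 fold change (median 0.50), and 2 had an unadjusted p under 0.05, both higher. These were Sox17, with 2.96 ± 2.30 CPM with vehicle (SD, n = 3) and 17.7 ± 7.93 CPM with tamoxifen (SD, n = 4), and Lama1, a laminin chain, with 4.21 ± 0.882 CPM with vehicle (SD, n = 3) and 10.8 ± 4.17 CPM with tamoxifen (SD, n = 4). The summed level of that list was 133 to 304 CPM in vehicle and 227 to 336 CPM in tamoxifen libraries. Pdgfra, a receptor of the primitive endoderm, had 57.8 ± 39.3 CPM with vehicle (SD, n = 3) and 41.0 ± 17.2 CPM with tamoxifen (SD, n = 4), and Gata6 had 65.4 ± 10.9 CPM with vehicle (SD, n = 3) and 90.7 ± 39.9 CPM with tamoxifen (SD, n = 4). Tamoxifen clone8_1 held 151 CPM of Gata6 and the other tamoxifen libraries 70.1 to 71.9 CPM, and without it the log2 fold change of Gata6 was 0.12 in place of 0.47. The naive epiblast list had 7 of 9 tested genes with a positive log2 fold change, and 1, Klf4, with an unadjusted p under 0.05 (0.49 ± 0.19, SE). Without vehicle clone4_1, vehicle clone8_1, tamoxifen clone4_1, tamoxifen clone4_2 or tamoxifen clone8_1, the unadjusted p of Klf4 was 0.117, 0.0647, 0.0544, 0.0889 and 0.0685 (edgeR). Of the 10 ERK feedback and response genes, 8 had a positive log2 fold change; Spry2, a feedback inhibitor, had 64.8 ± 18.6 CPM with vehicle (SD, n = 3) and 118 ± 10.2 CPM with tamoxifen (SD, n = 4), and Dusp6, an ERK phosphatase, had 38.3 ± 12.1 CPM with vehicle (SD, n = 3) and 34.0 ± 7.84 CPM with tamoxifen (SD, n = 4). None of these genes was called after adjustment.

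**Figure D4:**
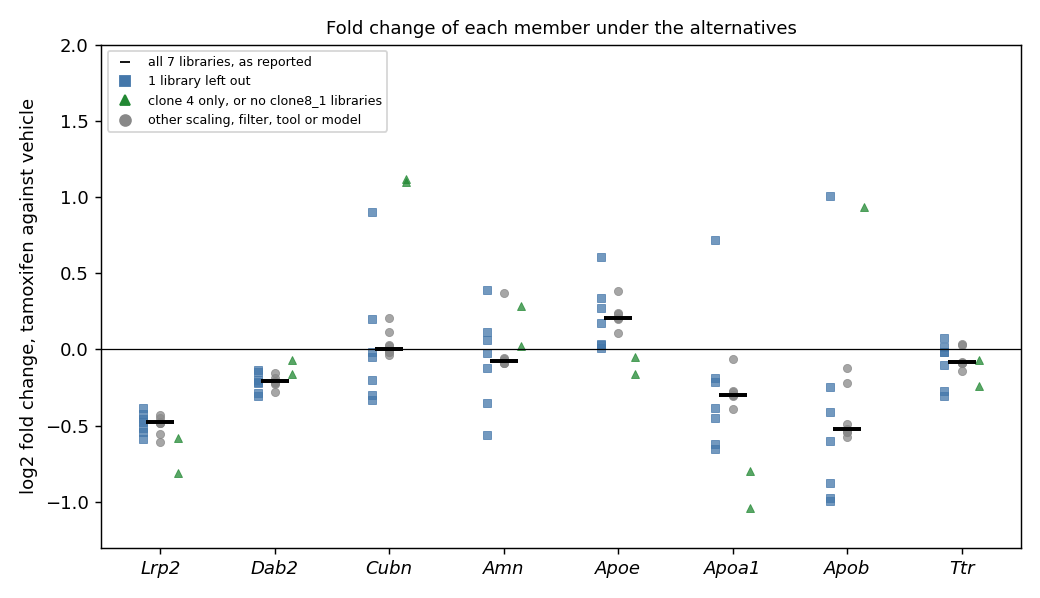
Log2 fold change of each of the 8 genes with all 7 libraries (black bar), with 1 library left out (blue), with clone 4 only or without both clone8_1 libraries (green), and under other scalings, filters, tools or models (grey). Lrp2 and Dab2 stay below 0 in every fit, and the values of Cubn, Amn, Apoa1, Apob and Ttr cross 0 when single libraries are left out.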

How the data were processed

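RNA-seq of 7 libraries was analysed from the table of raw counts per Ensembl gene that the authors deposited, with 1 column per library. STAR 2.5.3a, bcl2fastq 2.19.1 and mm10 are named in the submitters' processing notes; the counting program, annotation, strand setting and treatment of duplicates are not given in the sources used here. Amplified reads without molecular identifiers are not independent molecules, so limits from 3 counts cover counting error only. Symbols and coordinates are from GENCODE M21 (GRCm38, the same build as mm10), matched by ID for 52489 of 52636 genes.

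The test of the counts used edgeR 4.0.16 (R 4.3.3) with TMM factors, the expression filter by group, condition as the only term, the quasi-likelihood test and Benjamini-Hochberg adjustment over all 16248 genes. Intervals are 95%, and log2 CPM used a prior count of 2. DESeq2 1.42.0 was an alternative; the others were scalings, filters, libraries left out, clone, a replicate block and an offset by transcript length. The code was tested on simulated data.

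The members and lists were chosen with earlier results of these data known. Named were the 8 members, list genes with an unadjusted p under 0.05, a fixed set of 14 list genes (1 of which is not reported here and was left out of its list), and the 2 nearest profiles of each member with a mean of at least 5 CPM; genes outside that rule are marked or come as ranges of a marker list. The interaction of clone and condition was added after the values were seen. The second profile nearest to Apoa1, an unnamed transcript, was left out.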

Additional observations from a re-analysis of the deposited data

Results flagged for a closer look

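Cubn was singled out because its libraries moved in opposite directions in the clones: both tamoxifen libraries of clone 4 (11.9 and 8.92 CPM) were above both vehicle libraries (4.71 and 4.86 CPM), and both of clone 8 (5.09 and 10.0 CPM) were below the single vehicle library (17.4 CPM). The clone by condition interaction was -2.33 ± 0.63 (SE, unadjusted p = 0.00572, adjusted p = 0.116 in edgeR's quasi-likelihood test), so it did not pass after adjustment. The log2 ratio of group means was 1.12 in clone 4 and -1.20 in clone 8. Clone 8 has 1 vehicle library, so a clone difference and a peculiarity of that library cannot be told apart. None of the 8 genes had a tamoxifen library apart from the other 3 by Dixon's criterion, and the vehicle group of 3 was not put to that criterion.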

How the results depend on the processing

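Lrp2 and Dab2 kept a negative sign in all 17 alternatives (Lrp2 -0.81 to -0.38, Dab2 -0.31 to -0.071). Over the 8 genes and all alternatives, 23 values had a reversed sign. Of these, 8 were of Cubn, whose value with all libraries was 0.000125. Another 102 values kept the sign and the same side of an unadjusted p of 0.05. With the sign kept, 4 came below that threshold and 4 rose above it. The count of genes called was 0 except with DESeq2 (4) and without both clone8_1 libraries (2). The count of the 8 genes at an unadjusted p under 0.05 ranged from 0 (without vehicle clone4_2, tamoxifen clone4_1 or tamoxifen clone4_2) to 2 (without vehicle clone8_1) with 1 library left out, and was 2 without both clone8_1 libraries and in clone 4 alone (Lrp2 and Cubn). The count with groups apart ranged from 1 to 3 with 1 library left out. It was 3 without vehicle clone4_1, and 2 without vehicle clone4_2, vehicle clone8_1 or tamoxifen clone8_2. Without both clone8_1 libraries and in clone 4 alone it was 2 and 3. The background moved too. Genes at an unadjusted p under 0.05 (edgeR) were 1516 of 16896 without vehicle clone4_1 and 1108 of 16936 without vehicle clone8_1. Without tamoxifen clone4_1 they were 608 of 15546. Smaller groups separate more easily, and the share of all genes with groups apart in these settings is not given here. With 1 library left out, log2 fold changes ranged from -0.33 to 0.90 for Cubn, -0.56 to 0.39 for Amn, -0.65 to 0.72 for Apoa1, -0.997 to 1.01 for Apob, -0.31 to 0.075 for Ttr, -0.22 to 0.20 for Mttp, -0.27 to 0.49 for Afp, -0.86 to 0.19 for Pdgfra, -0.0060 to 0.50 for Lrp1 and -0.42 to 0.026 for Dusp6. Cubn was -0.018 with median-of-ratios factors and with DESeq2 and -0.037 with upper quartile factors. Without both clone8_1 libraries the reversed values were 0.021 for Amn, -0.16 for Apoe, 0.93 for Apob, 0.048 for Lrpap1, 0.040 for Mttp, 0.38 for Pdgfra and 0.079 for Nanog. In clone 4 alone they were 0.29 for Amn, -0.050 for Apoe, 0.14 for Mttp, -0.13 for Afp, 0.20 for Pdgfra and 0.18 for Nanog. Mttp was 0.017 with a mean count of at least 50 and 0.041 with the length offset, and Ttr was 0.035 with clone as a term. The causes of these reversals were not tested. Apob and Ttr gave no value with a mean count of at least 50, nor Apob in clone 4 alone.

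With the replicate number as a block the count of called genes was 0, Lrp2 was -0.61, and the signs of Amn (0.37), Ttr (0.030) and Mttp (0.13) reversed. Libraries with the same number did not deviate together (correlation of deviations over 16248 genes 0.0078, 0.021 and -0.068 for clone4_1, clone4_2 and clone8_1), and no vehicle library correlated best with the tamoxifen library of its own number, so the numbers were not taken as pairs. A lower and a higher prior count moved no difference of mean log2 CPM of the 8 genes by more than the spread of the tamoxifen libraries. The lowest counts of Apob and Ttr were 5 and 8, the fewest among the 8 genes.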
